A study of Drosophila melanogaster with 24 samples.

Results

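The genes described here are the chemosensory receptors of the fly head: the odorant receptors (Or), gustatory receptors (Gr) and ionotropic receptors (Ir). A receptor gene was taken as a gene whose name begins with Or, Gr or Ir followed by digits and a lower-case letter, plus Orco, and it was kept where the deposited gene counts reached at least 10 in 2 or more libraries. Of 180 receptor genes in the table, 77 met this rule: 34 Or genes including Orco, 23 Gr genes and 20 Ir genes. The rule used the size of the counts over all libraries and neither genotype nor time. A gene could still meet it through 1 genotype alone. Of the genes called below, Gr33a, Gr59d, Ir60a, Or19b and Or59c reached 10 counts only in mutant libraries, and Gr47b only in wild-type libraries. Their genotype differences therefore rest on values that the rule also used, and are not independent of it. The libraries were poly(A) RNA-seq of whole Drosophila melanogaster heads, and heads carry the antennae, the maxillary palps and the taste organs of the mouthparts. The groups were flies of a cwo5073 mutant strain and w1118 wild-type flies, kept in cycles of 12 h light and 12 h dark at 25 °C and collected at ZT2, ZT6, ZT10, ZT14, ZT18 and ZT22 (zeitgeber time, hours after lights on), with 2 libraries per genotype and time and 24 in all. Sex, age and the number of heads per library are not given in the labels, nor is it said that the 2 libraries of a group came from separate cultures, so p-values measure only the spread between these libraries. cwo encodes clockwork orange, a basic helix-loop-helix Orange repressor of the circadian clock.

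Insect Or and Gr proteins are related ion channels with multiple membrane-spanning segments. Each Or works together with the shared co-receptor Orco in the ciliated dendrites of olfactory neurons, and most olfactory neurons use 1 tuning Or. Ir proteins derive from ionotropic glutamate receptors and pair tuning subunits with the broadly used co-receptors Ir8a, Ir25a and Ir76b, for acids and amines in the antenna, for taste, and for temperature and humidity. Gr proteins detect sugars and bitter compounds in taste neurons, carbon dioxide in the antenna, and in some cases warmth. Each receptor is made by a small number of neurons, so its RNA is a small part of a head library.

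Total counts per library ranged from 11319605 to 19638611. The 77 receptor genes together took 0.0144 to 0.0276% of a mutant library and 0.0146 to 0.0258% of a wild-type library. Between 2 and 15 of the 77 genes (median 4) were at 0 in a mutant library, and between 5 and 21 (median 9) in a wild-type library. 16 receptor genes had at least 10 counts in every library. At the edge of the rule, 4 genes had 10 counts in exactly 2 libraries (Gr58c, Gr5a, Gr64d and Ir48c), and 7 genes just outside it had 10 counts in 1 library and at most 13 (Ir11a, Ir7f, Ir84a, Or19a, Or49b, Or67c and Or98a). Of the 103 genes outside the rule, 18 were at 0 in all 24 libraries. cwo itself averaged 523 ± 247 CPM, counts scaled to the normalised library size, in mutant heads and 93.5 ± 39.6 CPM in wild-type heads (SD, n = 12 each), with 12 of 12 mutant libraries above the highest wild-type library. The labels do not describe the lesion of the allele, and this level does not show whether protein is made.

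Per transcript length and averaged over all 24 libraries, Orco was the highest receptor gene of the head and Ir75a the second. Levels between genes are given in FPKM, fragments scaled to transcript length and library size, summed over the transcripts of a gene from the authors' tables. Orco averaged 23.1 ± 8.70 FPKM in mutant heads and 18.8 ± 5.59 FPKM in wild-type heads (SD, n = 12 each). Ir75a, a tuning subunit of acid-sensing antennal neurons, averaged 8.09 ± 4.43 FPKM in mutant heads and 14.1 ± 9.55 FPKM in wild-type heads. The order depended on the time. In the wild-type ZT6 libraries Ir75a was at 28.4 and 33.7 FPKM, above Orco at 23.5 and 15.0 FPKM. Ir75a was also above Orco in wild-type ZT2 replicate 2, wild-type ZT10 replicate 2 and mutant ZT10 replicate 1. No other receptor gene reached a mean of 5 FPKM over all 24 libraries.

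Behind these, Or43b, an antennal receptor of basiconic sensilla, averaged 4.91 ± 0.892 FPKM in mutant heads and 4.90 ± 1.17 FPKM in wild-type heads. Of the exon bases of Or43b, 40.7% are shared with Cul1 on the opposite strand. The labels do not give the strand counted, so this level may hold reads of Cul1. The co-receptor Ir76b averaged 4.04 ± 1.00 FPKM in mutant heads and 3.42 ± 1.03 FPKM in wild-type heads, within 1 SD of Ir75b and of Or63a in both genotypes. Ir68a, a subunit of moist-air sensing neurons, averaged 2.70 ± 0.460 FPKM in mutant heads and 3.15 ± 0.594 FPKM in wild-type heads. Only 12 of the 77 genes averaged at least 2 FPKM over all libraries (4 Or, 1 Gr and 7 Ir), and 56 averaged under 1 FPKM. By family, 25 of 34 Or genes, 20 of 23 Gr genes and 11 of 20 Ir genes were under 1 FPKM. Among Gr genes the highest were Gr39a, Gr10a, Gr28b, Gr64b and Gr64f. Gr39a, a locus of alternative first exons used in bitter and pheromone-sensing taste neurons, averaged 3.58 ± 1.60 FPKM in mutant heads and 2.05 ± 1.59 FPKM in wild-type heads. The exons annotated to Gr10a are all shared with Or10a on the same strand and those of Gr64b with Gr64c, so the level printed for Gr10a or Gr64b cannot be assigned to that gene alone.

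**Figure D1:**
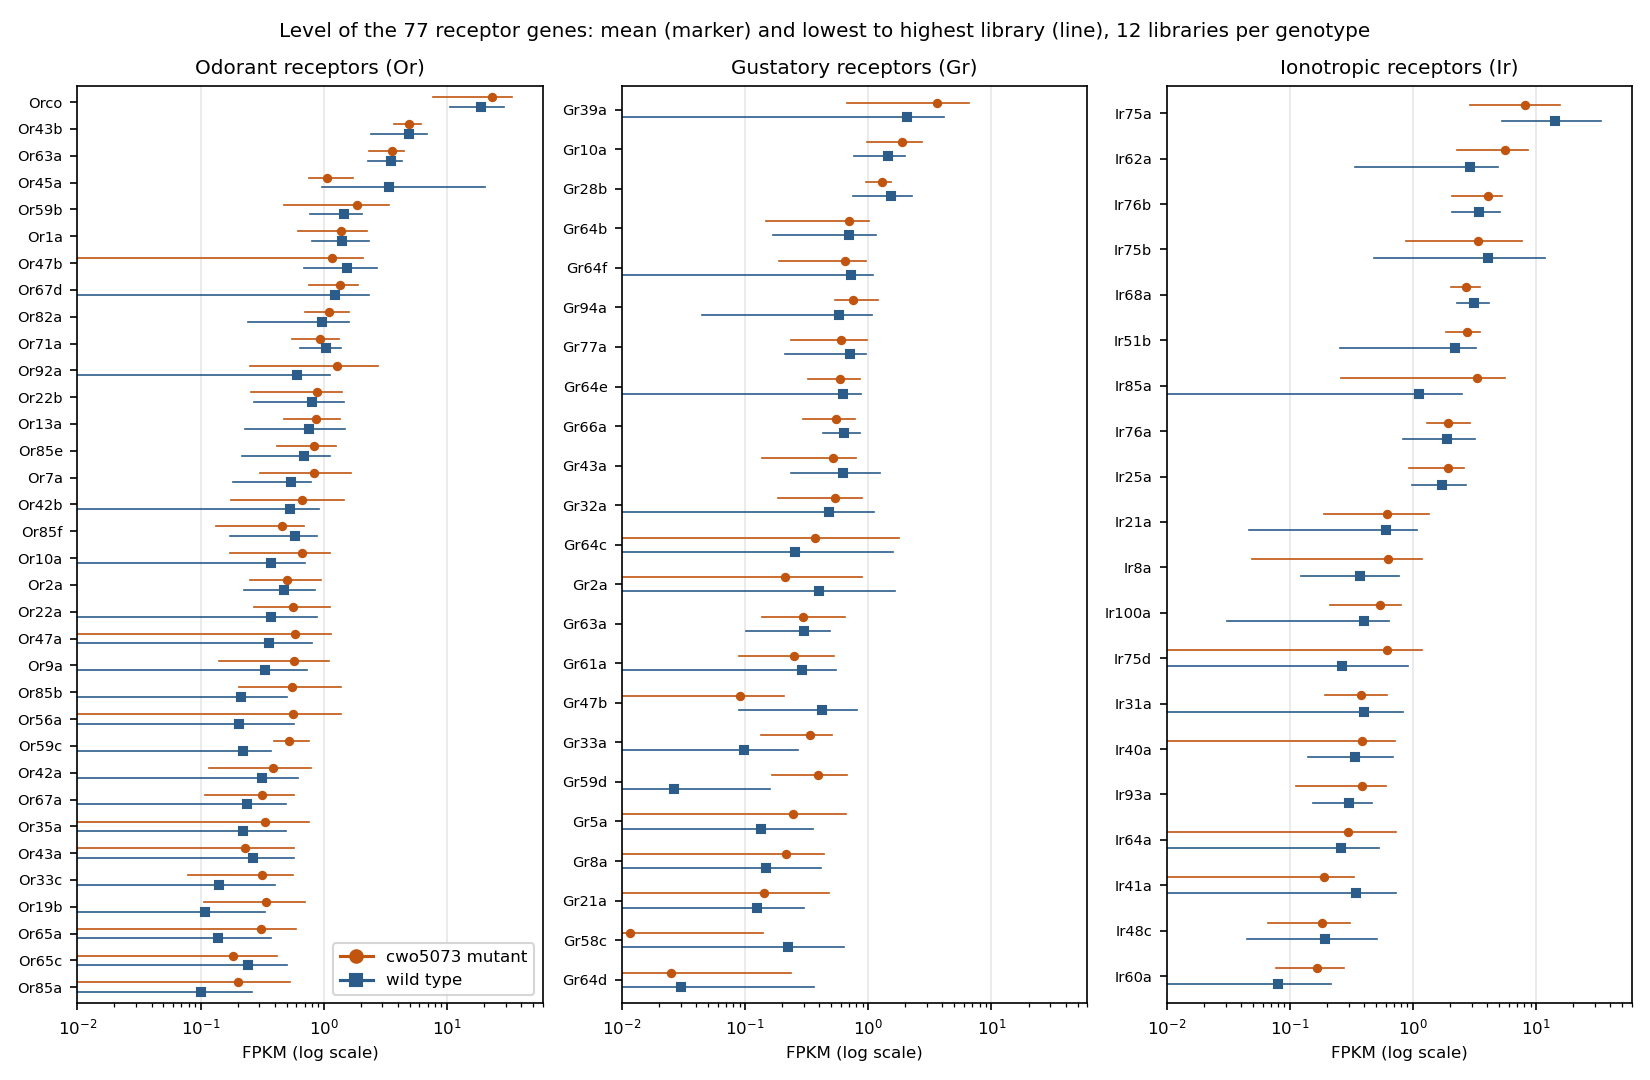
Mean FPKM of each of the 77 receptor genes (log axis) in mutant heads (orange circles) and wild-type heads (blue squares), 12 libraries per genotype, with a line from the lowest to the highest library and genes ordered by their mean over all libraries within each family. Orco (23.1 and 18.8 FPKM) and Ir75a (8.09 and 14.1 FPKM) lie to the right of all others, and lines that reach the left edge include a library at or near 0.

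The 4 co-receptors were not called different between the genotypes. The comparison of the mutant with wild type over all times used edgeR's quasi-likelihood test on the mean of the 6 time-wise log2 differences, with Benjamini-Hochberg adjustment over all 11095 genes tested and a threshold of 0.05. Orco (chr3R:5407183-5410469, minus strand, dm6) ranged from 15.4 to 63.0 CPM with a median of 48.2 CPM in mutant heads, and from 22.2 to 51.3 CPM with a median of 34.7 CPM in wild-type heads. The groups overlapped, with 5 mutant libraries above the highest wild-type library and 1 below the lowest, and the log2 fold change was 0.33 ± 0.22 (SE, adjusted p = 0.25). For Ir25a the log2 fold change was 0.22 ± 0.17 (adjusted p = 0.33), for Ir76b 0.29 ± 0.15 (adjusted p = 0.16) and for Ir8a, the co-receptor of antennal acid-sensing neurons, 0.76 ± 0.36 (adjusted p = 0.12). None of these 4 values shows that the levels were alike: the mutant values differed between the libraries numbered 1 and 2.

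In mutant heads, Orco averaged 31.9 ± 10.6 CPM in the 6 replicate 1 libraries and 57.4 ± 5.44 CPM in the 6 replicate 2 libraries (SD over the 6 times), and replicate 2 was the higher at 6 of 6 times. In wild-type heads, Orco averaged 42.1 ± 7.03 CPM in replicate 1 and 28.9 ± 5.14 CPM in replicate 2, and replicate 2 was the higher at 0 of 6 times. Set against all 12 wild-type libraries, the log2 fold change of Orco was −0.21 (adjusted p = 0.42) with only the mutant replicate 1 libraries and 0.71 (adjusted p = 0.070) with only the mutant replicate 2 libraries. The corresponding values were −0.15 and 1.202 for Ir8a, −0.16 and 0.52 for Ir25a, and 0.03 and 0.49 for Ir76b, none of them called. These fits rest on 1 mutant library per time, which is assumed to vary like the wild-type pairs.

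In the mutant, the tuning Or genes were split in the same way. Summed over 32 Or genes other than Orco and Or45a, mutant heads had 35.3 ± 4.59 CPM in replicate 1 and 51.5 ± 7.85 CPM in replicate 2, against 36.8 ± 4.28 and 36.9 ± 4.58 CPM in wild-type heads. Of the 77 receptor genes, 65 (84.4%) averaged more in the mutant replicate 2 than in the mutant replicate 1 libraries, where 52.4% of all genes tested did. This held for 33 of 34 Or genes, 19 of 23 Gr genes and 13 of 20 Ir genes. In wild type, 36 of 77 receptor genes (46.8%) averaged more in replicate 2, against 53.2% of all genes tested. The summed level of the 8 fat body markers in the table was split in the opposite direction. This sum was 41550 to 64200 CPM in mutant replicate 1 and 10490 to 15940 CPM in mutant replicate 2. In wild-type replicates 1 and 2 it was 10500 to 21900 CPM and 4878 to 33860 CPM. The sum does not show how each marker moved. The 12 genes of antennal support cells summed to 1641 to 2950 CPM in mutant replicate 1 and 2907 to 4083 CPM in mutant replicate 2, against 2970 to 5881 CPM and 2095 to 8930 CPM in wild type. Their part in the receptor differences was not tested. In such bulk libraries, fewer cells of a type and less RNA per cell cannot be told apart.

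**Figure D2:**
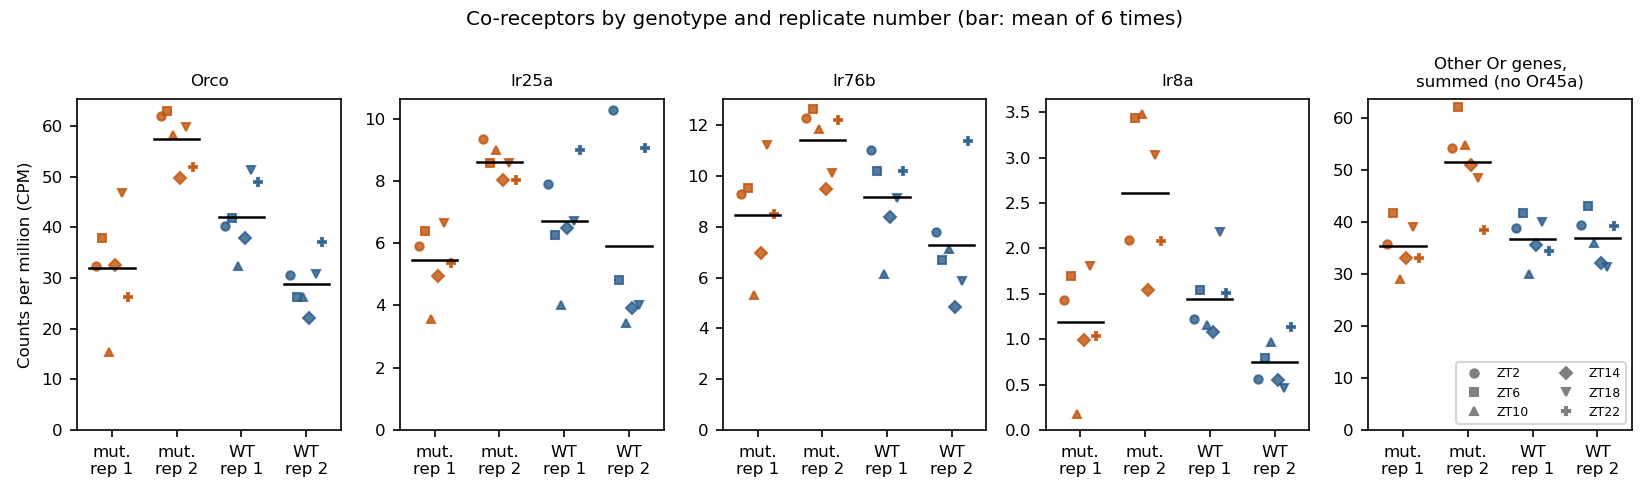
CPM of Orco, Ir25a, Ir76b, Ir8a and the sum of 32 other Or genes in each library, by genotype and replicate number, with mutant libraries left (orange) and wild-type libraries right (blue), marker shapes for the 6 times and bars for the mean of 6 libraries. Orco averages 31.9 and 57.4 CPM in mutant replicates 1 and 2, and 42.1 and 28.9 CPM in wild-type replicates 1 and 2.

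Over all times, 14 of the 76 receptor genes tested were called different between mutant and wild-type heads, 11 higher and 3 lower in the mutant (Gr5a had too few counts to be tested). Of all genes tested, 28.0% were called, 14.1% higher and 13.9% lower, so the higher count of receptor genes is near the background and the lower count is under it. At an unadjusted p under 0.05 there were 24, and the further 10 were Gr2a, Ir100a, Ir51b, Ir68a, Or10a, Or33c, Or56a, Or7a, Or92a and Or9a. The log2 fold change was above 0 for 55 of 76 receptor genes, against 49.0% of all genes tested, and its median was 0.26 for receptor genes and −0.0094 for all genes. The receptor genes were chosen by raw counts, and all genes tested were not. Total counts were 16271101 to 19638611 in mutant and 11319605 to 16602528 in wild-type libraries. Low genes that are higher in the mutant could therefore meet the rule more easily. In the mutant, 65 of the 77 averaged more in replicate 2 than in replicate 1. This tally does not show a shift shared by both mutant sets. Markers of other head cells also differed between the genotypes: of those tested, 6 of 7 fat body, 6 of 10 photoreceptor and 3 of 9 glia markers were called higher and 4 of 7 muscle markers lower. Of 10 neuron markers, brp, Syt1 and futsch were called higher and Rdl lower. Summed photoreceptor markers ranged from 82050 to 100100 CPM in mutant heads and from 60510 to 80780 CPM in wild-type heads, and summed muscle markers from 4244 to 5522 CPM in mutant heads and from 5549 to 7161 CPM in wild-type heads. Their part in the receptor differences was not tested. Because libraries of the mutant that share a replicate number deviate together, a p over all times does not cover the spread between those sets. In fits with only the mutant replicate 1 libraries 3 receptor genes were called higher and 5 lower (23.3% of all genes were called), and with only the mutant replicate 2 libraries 0 higher and 1 lower (3.29% of all genes). Ir75a was the 1 receptor gene called in both.

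The calls were spread over the receptor classes. None of the 5 temperature and humidity receptors (Gr28b, Ir21a, Ir40a, Ir68a and Ir93a) was called, with log2 fold changes from −0.19 to 0.33. The carbon dioxide receptors Gr21a and Gr63a, which act as a pair in antennal neurons, had log2 fold changes of 0.23 and 0.01 and were not called. Nor was any of the 7 sugar receptors tested (Gr43a, Gr61a, Gr64b, Gr64c, Gr64d, Gr64e and Gr64f), whose median log2 fold change was −0.017. Gr64b, for example, averaged 2.17 ± 0.952 CPM in mutant heads and 2.16 ± 1.03 CPM in wild-type heads (log2 fold change −0.02 ± 0.36, adjusted p = 0.98), and its sign turned under 12 of 40 alternative settings. All exon bases of Gr64b are shared with Gr64c, and 97.3% of those of Gr64d with Gr64e, on the same strand. Values of these genes depend on how shared reads were assigned and do not show the level of each gene alone.

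Of the 6 bitter receptors measured, Gr33a, Gr39a and Gr59d were higher in the mutant, and Gr32a (0.31), Gr66a (−0.19) and Gr8a (1.12 on the log2 scale) were not called. Of 12 bitter receptors listed, only these 6 met the count rule, Gr33a and Gr59d through mutant libraries alone. Their share called higher is therefore not independent of the rule. Over all genes tested, which were not chosen by that rule, 14.1% were called higher, and the 2 shares were not compared by a test. Among 18 Or genes of antennal basiconic and coeloconic sensilla, Or85b was called higher. The other 17 (Or10a, Or13a, Or22a, Or22b, Or35a, Or42b, Or43b, Or47a, Or56a, Or59b, Or67a, Or7a, Or82a, Or85a, Or85f, Or92a and Or9a) were not. The log2 fold change was above 0 for 17 of the 18, against 49.0% of all genes, and its median was 0.57, against −0.0094 for all genes. These 18 genes had passed the count rule, by which all genes were not chosen. Summed, these 18 genes averaged 19.6 ± 3.51 CPM in the mutant replicate 1 and 30.3 ± 5.42 CPM in the mutant replicate 2 libraries, against 19.5 ± 3.13 CPM over the 12 wild-type libraries, so the higher sum is found in mutant replicate 2. Of 7 trichoid Or genes, Or19b was called higher, and Or2a, Or43a, Or47b, Or65a, Or65c and Or67d were not. Or67d, the receptor of the male pheromone cis-vaccenyl acetate, had a log2 fold change of 0.21. Of 5 maxillary palp Or genes, Or59c was called higher, and Or33c, Or42a, Or71a and Or85e were not.

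Of 3 Or genes known from larval olfactory neurons, Or45a was called lower, and Or1a and Or63a were not. Of 7 antennal Ir genes for acids and amines, Ir75d was called higher and Ir75a lower, and Ir31a, Ir41a, Ir64a, Ir75b and Ir76a were not. Ir62a was the 1 gene of the taste Ir list with enough counts, and it was called higher. Of 11 receptor genes in none of these lists, Gr94a, Ir60a and Ir85a were called higher and Gr47b lower. Gr10a, Gr2a, Gr58c, Gr77a, Ir100a, Ir48c and Ir51b were not. Gr58c was at 0 in 11 mutant and 4 wild-type libraries, with means of 0.012 FPKM in mutant and 0.22 FPKM in wild-type heads. It met the count rule through wild-type libraries alone. limma called it in 3 alternatives: voom, and log2 of FPKM plus 0.5 or 0.1.

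Several of the abundant receptors were not called. Or43b averaged 7.42 ± 1.21 CPM in mutant heads and 7.18 ± 1.34 CPM in wild-type heads (log2 fold change 0.05, adjusted p = 0.75). Reads of Cul1, which shares exon bases with Or43b on the opposite strand, may be part of these values. Ir68a averaged 7.09 ± 1.07 CPM in mutant heads and 8.07 ± 1.17 CPM in wild-type heads (log2 fold change −0.19 ± 0.090, adjusted p = 0.11). With upper-quartile scaling it was called lower (−0.27, adjusted p = 0.0497). Gr28b, whose products include a warmth receptor, averaged 2.30 CPM in mutant heads and 2.61 CPM in wild-type heads (−0.17 ± 0.14, adjusted p = 0.39). The log2 fold changes of the other abundant members were 0.05 for Or63a, 0.34 ± 0.23 for Or59b, 0.40 ± 0.20 for Gr10a and −0.02 for Gr64f. Those of Or63a and Gr64f were near 0 and turned sign under 5 and 15 of 40 alternative settings.

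**Figure D3:**
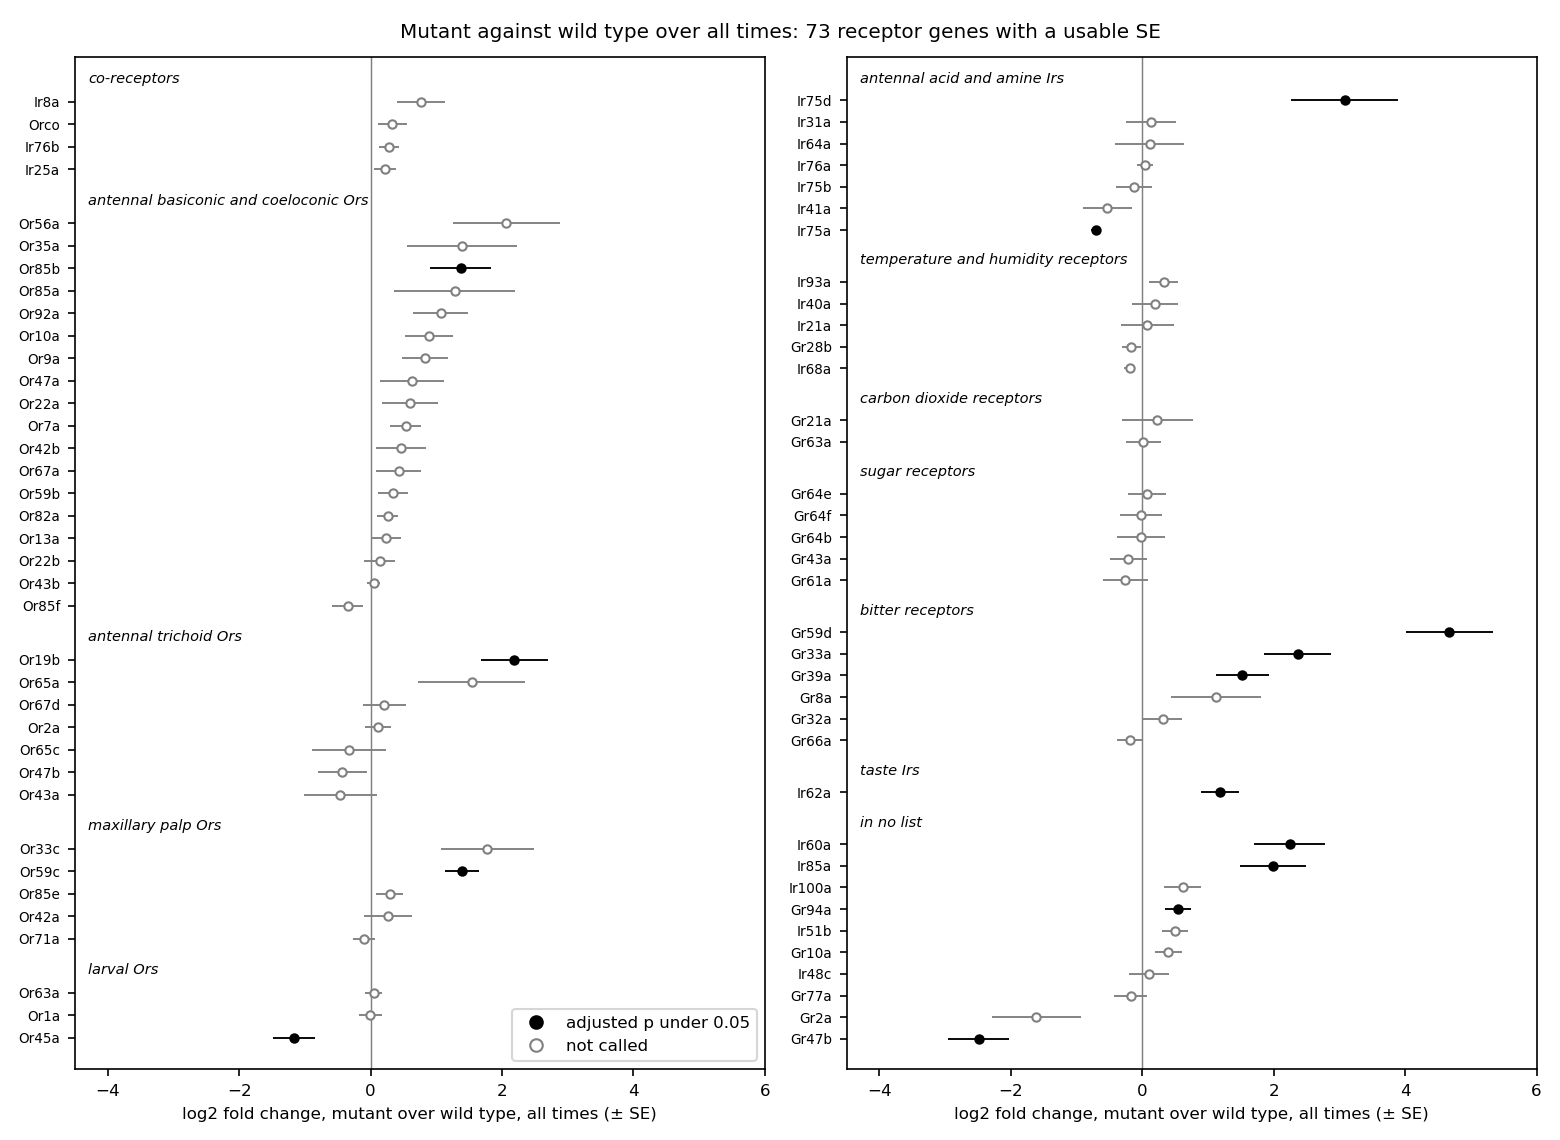
Log2 fold change of the mutant over wild type across all times, with its SE, for the 73 receptor genes for which an SE could be given, grouped by receptor class, with filled points for adjusted p under 0.05. Filled points lie in 8 of the 12 classes, from −2.49 for Gr47b to 4.67 for Gr59d.

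Several called genes were near the limit of detection, and for these the ratio of mean CPM is a plainer measure than the fitted log2 fold change, which averages the times and takes large values at times when both wild-type libraries were at 0. Gr59d, a bitter receptor, ranged from 0.220 to 0.855 CPM (median 0.499) in mutant heads, and from 0 to 0.262 CPM (median 0) in wild-type heads. 11 of 12 mutant libraries lay above the highest wild-type library, and 10 of 12 wild-type libraries were at 0. In counts this is 107 in mutant and 8 in wild-type heads, a ratio of mean CPM of 12.0 and a fitted log2 fold change of 4.67 ± 0.67 (adjusted p = 5.8e-04). Gr33a, which bitter neurons use broadly together with other Gr proteins, ranged from 0.303 to 0.993 CPM (median 0.694) in mutant heads, and from 0 to 0.508 CPM (median 0.178) in wild-type heads. 8 of 12 mutant libraries were above every wild-type library, 5 wild-type libraries were at 0, and the ratio of mean CPM was 3.31 (log2 fold change 2.36 ± 0.51, adjusted p = 0.0051).

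Or59c, a maxillary palp receptor, was the 1 receptor gene whose groups did not overlap. It met the count rule through mutant libraries alone. It ranged from 0.623 to 1.09 CPM (median 0.768) in mutant heads, and from 0 to 0.590 CPM (median 0.384) in wild-type heads. Among all genes tested, 0.82% were separated in this direction, so 1 of 76 receptor genes is near the background. The ratio of mean CPM was 2.39 (log2 fold change 1.39 ± 0.26, adjusted p = 0.0017), and without the wild-type ZT2 replicate 1 library the log2 fold change was 2.17. No receptor gene was separated in the lower direction, where the share over all genes was 0.856%.

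Or19b, whose near-identical neighbour Or19a may share its reads, ranged from 0.182 to 0.859 CPM in mutant heads (median 0.421), and from 0 to 0.406 CPM (median 0.176) in wild-type heads. 6 mutant libraries lay above the highest wild-type library (log2 fold change 2.19 ± 0.51, adjusted p = 0.0083). Or85b, tuned to ketones and esters of fruit, ranged from 0.264 to 1.72 CPM in mutant heads (median 0.619), and from 0 to 0.625 CPM (median 0.296) in wild-type heads. The groups overlapped in 6 mutant libraries (log2 fold change 1.37 ± 0.47, adjusted p = 0.042), and the call ended under 25 of 39 alternative settings. Leaving out the wild-type ZT2 replicate 1, ZT14 replicate 1 or ZT22 replicate 2 library moved its log2 fold change to 2.19, 2.11 and 2.28.

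Gr47b, for which no role is given here, was lower in the mutant. It ranged from 0 to 0.358 CPM (median 0.185) in mutant heads, and from 0.190 to 1.36 CPM (median 0.651) in wild-type heads. 7 of 12 mutant libraries lay below the lowest wild-type library, with 33 counts in mutant and 119 in wild-type heads, a ratio of mean CPM of 0.238 and a log2 fold change of −2.49 ± 0.46 (adjusted p = 0.0019).

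Where a receptor gene lies inside another gene, its counts may hold reads of that gene, since the labels do not say which strand was counted. 14 of the 77 receptor genes lie within the bounds of another gene without touching its exons, and 18 share exon bases with another gene, 8 of them on the same strand. Over all times, 6 of the 14 nested genes were called, 2 of 17 tested that share exon bases, and 6 of 45 that do neither, against 28.0% of all genes tested. These shares were not compared by a test.

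The nested called genes were Gr39a (in Mondo), Gr94a (in p53), Ir60a (in nord), Ir62a (in Iml1), Or45a (in CG13739 and CG13954) and Or59c (in CG43795). The count table lists Iml1 as CG12090. Iml1, on the same strand as Ir62a, was itself higher, with a log2 fold change of 0.44 ± 0.10 (adjusted p = 0.0061). CG43795, opposite to Or59c and Or59b, was also higher (0.35 ± 0.09, adjusted p = 0.012). p53 (−0.05) and nord (−0.13) were not called, nor were CG13739 (0.23) and CG13954 (−0.30). Ir75d shares 90.7% of its exon bases with COX6AL2 on the same strand, and Ir85a 10.8% with Pif1A and Pif1B on the opposite strand. No values are given here for Mondo, COX6AL2, Pif1A or Pif1B.

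Ir62a (chr3L:1529439-1531259, minus strand) ranged from 4.35 to 16.8 CPM (median 11.9) in mutant heads, and from 0.655 to 9.05 CPM (median 6.11) in wild-type heads. 9 mutant libraries lay above every wild-type library, and the log2 fold change was 1.19 ± 0.29 (adjusted p = 0.0090). Gr39a (chr2L:21290734-21297686, plus strand) ranged from 0.882 to 8.33 CPM (median 4.56) in mutant heads, and from 0 to 4.76 CPM (median 2.23) in wild-type heads. 4 mutant libraries lay above the highest wild-type library (log2 fold change 1.52 ± 0.40, adjusted p = 0.014). It moved to 2.66 without the wild-type ZT22 replicate 2 library. All 4 transcripts of Gr39a were detected, with mean levels of 1.29, 0.993, 0.763 and 0.534 FPKM in mutant heads, against 0.846, 0.529, 0.306 and 0.369 FPKM in wild-type heads.

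Both genes moved with a property of the libraries. The length score of a library is the median log2 deviation of its long transcripts (the upper quartile of length among abundant genes) minus that of its short ones. It was under −0.2 in 2 mutant and 5 wild-type libraries, all from ZT18, ZT22, ZT2 or ZT10, and lowest in wild-type ZT22 replicate 1 (−1.04) and ZT2 replicate 2 (−0.945). In these libraries Ir62a was 4.35 and 4.46 CPM in the mutant and 0.655 to 3.98 CPM in wild type, against 8.96 to 16.8 CPM in the other mutant and 5.95 to 9.05 CPM in the other wild-type libraries. Gr39a was 0.882 and 2.06 CPM in the mutant and 0 to 1.65 CPM in wild type, against 3.36 to 8.33 CPM in the other mutant and 1.57 to 4.76 CPM in the other wild-type libraries. With offsets for transcript length the log2 fold changes were 1.23 for Ir62a and 1.72 for Gr39a, both still called. Over ZT6 to ZT18 alone they were 0.64 (adjusted p = 0.33) and 0.62 (adjusted p = 0.49).

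Or45a was lower in the mutant. It ranged from 2.90 to 6.23 CPM (median 3.77) in mutant heads, and from 3.31 to 105.8 CPM (median 6.23) in wild-type heads. 4 mutant libraries lay below the lowest wild-type library, and 1 wild-type library, ZT2 replicate 2, stood at 105.8 CPM when the other 11 were between 3.31 and 13.0 CPM. The log2 fold change was −1.17 ± 0.32 (adjusted p = 0.016), and −0.66 (adjusted p = 0.012) without that library. Its level was 4.98 to 6.23 CPM in the 2 mutant and 5.16 to 105.8 CPM in the 5 wild-type libraries with a low length score, against 2.90 to 4.72 CPM in the other mutant and 3.31 to 7.62 CPM in the other wild-type libraries. Gr94a, at 0.726 to 1.55 CPM (median 0.980) in mutant heads and 0.113 to 1.33 CPM (median 0.842) in wild-type heads, had 1 mutant library above the highest wild-type library. The 2 mutant libraries with a low length score had 0.778 and 0.801 CPM. The 5 wild-type libraries with a low length score had 0.113 to 0.623 CPM, below every mutant library, against 0.731 to 1.33 CPM in the other 7. Its log2 fold change of 0.55 ± 0.20 (adjusted p = 0.0497) was just inside the threshold and was called in 9 of 39 alternatives.

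Ir85a (chr3R:8794684-8796966, plus strand) ranged from 0.664 to 12.8 CPM (median 8.03) in mutant heads, and from 0 to 5.58 CPM (median 2.99) in wild-type heads. 8 mutant libraries lay above every wild-type library, and the mutant ZT18 replicate 1 library, at 0.664 CPM, was the lowest of its group. The ratio of mean CPM was 3.11 (log2 fold change 1.99 ± 0.50, adjusted p = 0.010), and the log2 fold change was 3.304 without the wild-type ZT2 replicate 1 library. Ir75d, a subunit for amines, ranged from 0 to 2.92 CPM (median 1.49) in mutant heads, and from 0 to 2.11 CPM (median 0.287) in wild-type heads. 1 mutant and 6 wild-type libraries were at 0. The ratio of mean CPM was 2.445 beside a fitted log2 fold change of 3.08 ± 0.81 (adjusted p = 0.016), and without the mutant ZT10 replicate 2 library it was 1.84 and no longer called. Ir60a ranged from 0.229 to 0.672 CPM (median 0.428) in mutant heads, and from 0 to 0.565 CPM (median 0.156) in wild-type heads. 3 mutant libraries lay above every wild-type library, 5 wild-type libraries were at 0, and the ratio of mean CPM was 1.99 beside a fitted log2 fold change of 2.24 ± 0.54 (adjusted p = 0.011).

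**Figure D4:**
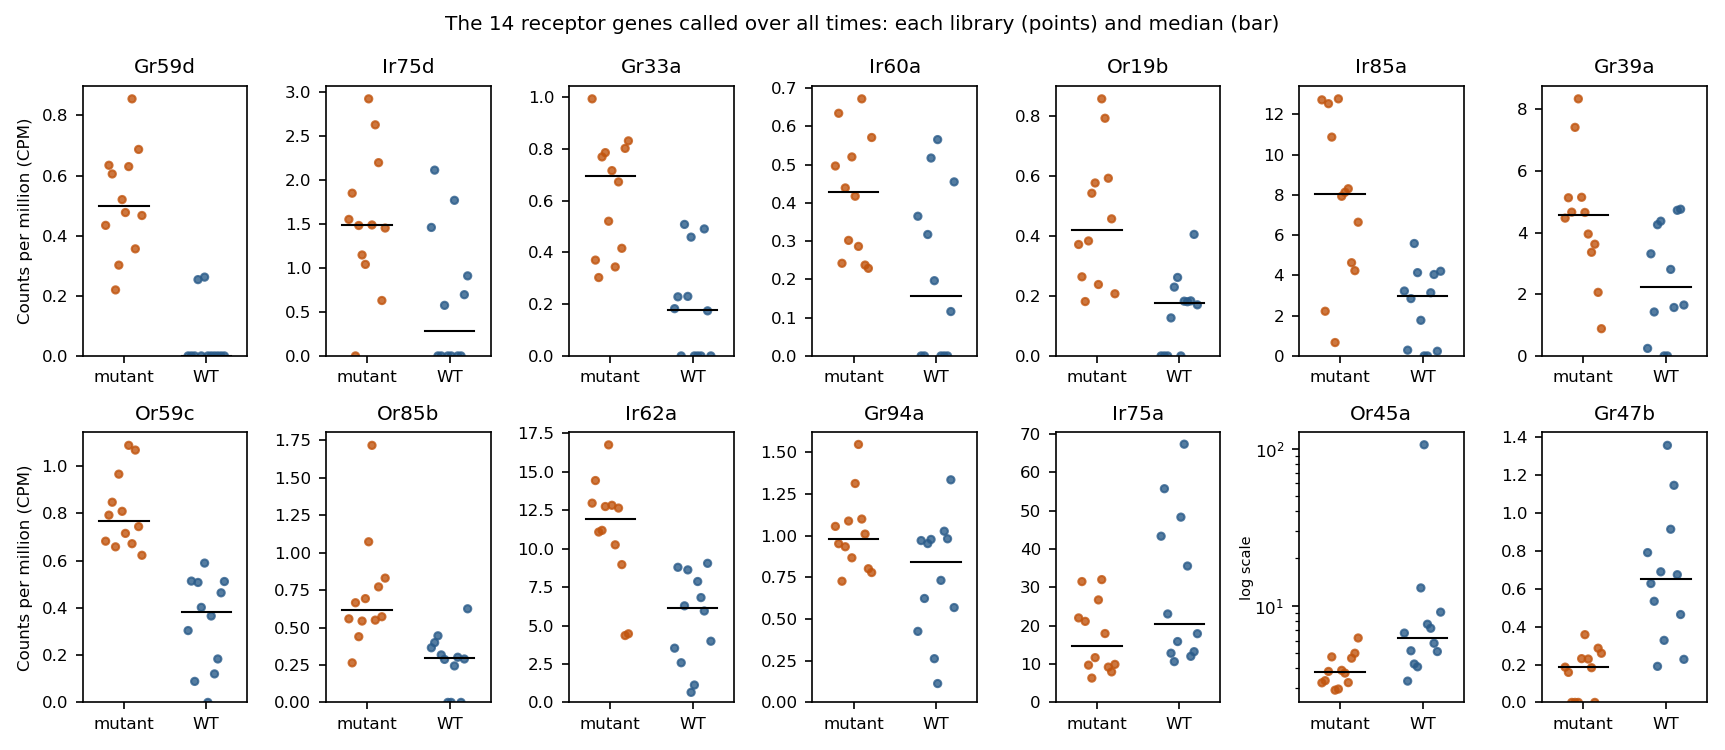
CPM of the 14 receptor genes called over all times in each of the 12 mutant libraries (orange, left) and 12 wild-type libraries (blue, right), with the median as a bar, ordered by log2 fold change. All axes start at 0 except that of Or45a, which is a log scale because 1 wild-type library stands at 105.8 CPM, and the groups overlap in every panel but that of Or59c.

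Ir75a was lower in the mutant at all 6 times, and it was the 1 receptor gene whose daily rhythm was called in both genotypes. Ir75a lies on the minus strand at chr3L:17815570-17817921, next to Ir75b (chr3L:17818073-17820193) and Ir75c (chr3L:17820493-17822834), relatives that detect short-chain acids. In mutant heads its 2 libraries had 22.0 and 26.7 CPM at ZT2, 31.5 and 32.0 at ZT6, 21.1 and 18.0 at ZT10, 9.71 and 9.20 at ZT14, 6.34 and 7.96 at ZT18, and 11.7 and 9.91 at ZT22. In wild-type heads they had 43.3 and 48.3 CPM at ZT2, 55.7 and 67.3 at ZT6, 23.1 and 35.5 at ZT10, 12.8 and 12.0 at ZT14, 10.6 and 13.2 at ZT18, and 15.9 and 17.9 at ZT22. In both genotypes the light-phase libraries were high and the dark-phase libraries low, and at each of the 6 times both mutant libraries lay below both wild-type libraries.

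Over all times the log2 fold change of Ir75a was −0.70 ± 0.083 (adjusted p = 2.5e-05). It lay between −0.78 and −0.65 under 40 alternative settings and was called in all of them. It was −0.71 (adjusted p = 0.0055) with only the mutant replicate 1 libraries and −0.70 (adjusted p = 0.013) with only the mutant replicate 2 libraries. The time-wise log2 fold changes ran from −0.39 at ZT14 to −0.95 at ZT6, and the test for a difference between times did not call it.

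A cosine of 24 h period was fitted by least squares to the log2 CPM of each genotype, which gave amplitude, peak and SE. The adjusted p is from edgeR's separate rhythm test on all 24 libraries. The mutant rhythm of Ir75a had an amplitude of 1.10 ± 0.055 on the log2 scale and a peak at ZT 5.49 ± 0.19 h (adjusted p = 1.8e-07). The wild-type rhythm had an amplitude of 1.27 ± 0.098 and a peak at ZT 5.02 ± 0.29 h (adjusted p = 8.7e-09). The mean at ZT6 was 4.44 times that at ZT18 in mutant heads and 5.16 times in wild-type heads. Ir75a was called rhythmic in both genotypes under all 35 alternatives, and the difference between the 2 rhythms was called under none of them (adjusted p = 0.55 to 0.98). This does not show that the rhythms were alike.

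Ir75b followed a similar course with more scatter. Its 2 libraries had 8.68 and 11.3 CPM at ZT2, 15.2 and 10.53 at ZT6, and 2.90 and 1.72 at ZT18 in mutant heads. In wild-type heads they had 10.6 and 1.36 CPM at ZT2, 21.1 and 20.3 at ZT6, and 3.85 and 4.70 at ZT18. ZT6 was the highest time in both genotypes, and the wild-type ZT2 libraries differed widely. The rhythm of Ir75b was called in wild type (adjusted p = 0.035) and not in the mutant (adjusted p = 0.072), the difference between the rhythms was not called, and over all times its log2 fold change was −0.12 ± 0.28 (adjusted p = 0.77). Its fitted amplitude was 1.28 ± 0.19 in mutant heads and 0.97 ± 0.44 in wild-type heads on the log2 scale, so the calls do not show a weaker mutant rhythm. Its fitted peak was at ZT 5.35 ± 0.57 h in mutant heads and ZT 7.22 ± 1.74 h in wild-type heads. The wild-type call held under 26 of 35 alternatives. The mutant rhythm was called under 2 of 35, both without the wild-type ZT2 replicate 2 library.

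None of the neighbours tested from NUCB1 to CG5567 was called rhythmic in either genotype, and their courses were not compared with that of Ir75a by a test. The nearest genes on the 2 sides, cln3 and Grd, had log2 fold changes of 0.57 ± 0.13 (adjusted p = 0.0055) and 0.05 ± 0.06 (adjusted p = 0.50), so cln3 was higher in the mutant where Ir75a was lower. Ir75c averaged 0.220 CPM in mutant and 0.1001 CPM in wild-type heads, too low to be tested.

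**Figure D5:**
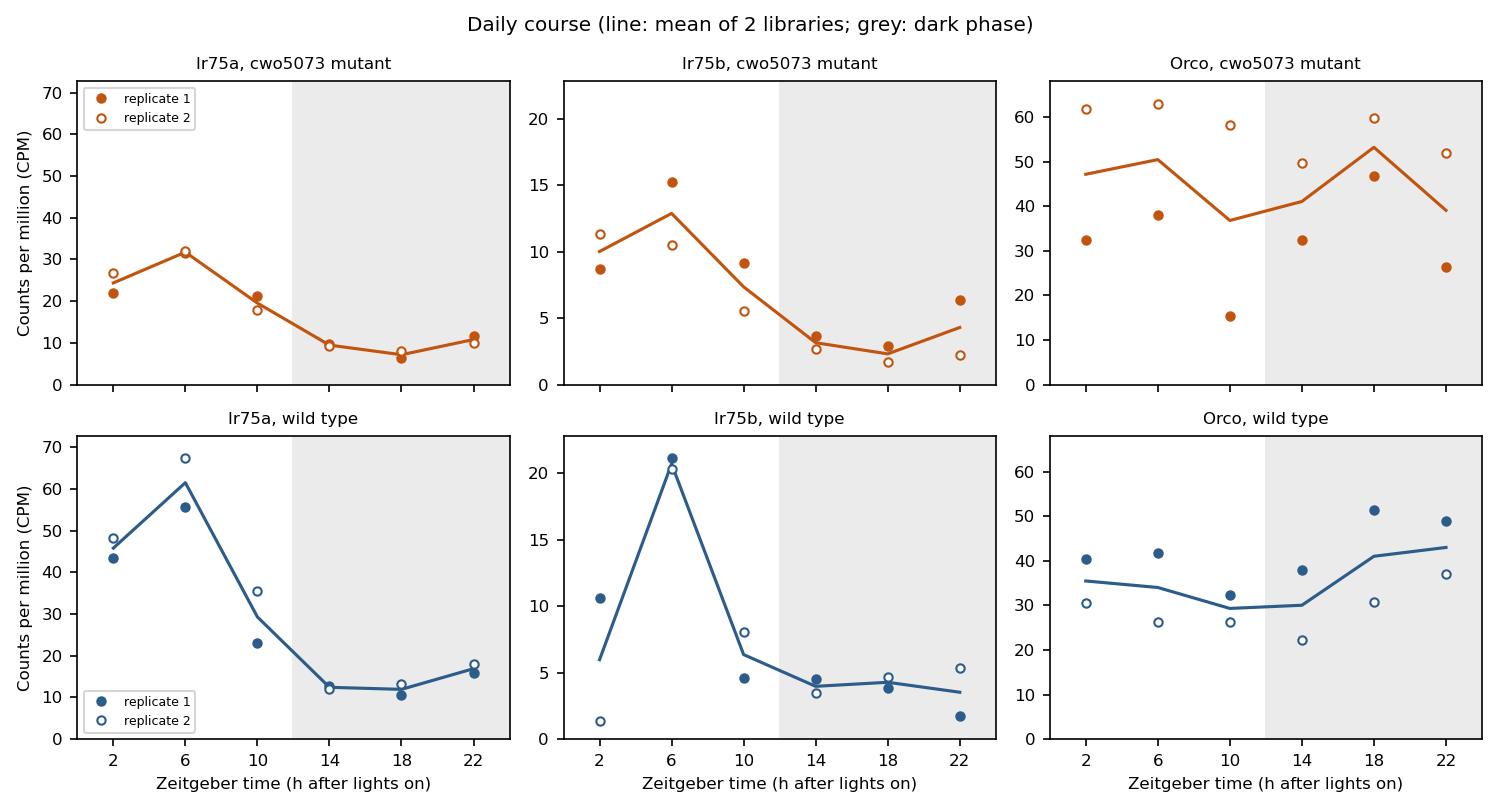
CPM of Ir75a, Ir75b and Orco over zeitgeber time in mutant heads (orange, upper row) and wild-type heads (blue, lower row), with filled points for replicate 1, open points for replicate 2, a line through the mean of the 2 libraries, and the dark phase in grey. Ir75a peaks at ZT6 in both genotypes (means of 31.8 and 61.5 CPM), whereas Orco separates by replicate number.

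Single times gave few calls. At ZT2, 5 of 76 receptor genes were called, against 14.5% of all genes. Gr39a (log2 fold change 4.84), Ir62a (2.40) and Gr94a (1.96) were higher, where 5.08% of all genes were. Or45a (−3.98) and Ir75a (−0.91) were lower, where 9.42% of all genes were. At ZT2, Gr39a had 4.47 and 4.65 CPM in mutant heads, against 0.243 and 0 CPM in wild-type heads. These wild-type ZT2 libraries are among those with a low length score, and without ZT2 replicate 2 of the wild type Or45a at ZT2 was −0.93 (adjusted p = 0.49). At ZT6, Ir75a alone was called (−0.95, adjusted p = 0.034), against 0.829% of all genes, 0.424% in the lower direction.

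At ZT10, ZT14, ZT18 and ZT22 edgeR called 0 receptor genes, with 8, 3, 4 and 4 at an unadjusted p under 0.05. Of all genes 1.26, 0.811, 0.757 and 1.16% were called at these times. limma-voom also called 0 at each of the 4. The test for a genotype difference that varies over the times called 0 receptor genes, as it called 0.0% of all genes (2 receptor genes, Ir60a and Or45a, at an unadjusted p under 0.05, and 0 by limma-voom).

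In the rhythm tests, Ir75a was the 1 receptor gene called in the mutant, where 1.09% of all genes were called. In wild type 3 were called, Ir75a, Ir75b and Or45a, where 5.62% of all genes were. The call for Or45a rested on the 1 high wild-type ZT2 library and was lost without it (adjusted p = 0.27). The difference between the rhythms was called for 0 receptor genes and 0.0% of all genes by edgeR, with 3 receptor genes (Gr94a, Ir60a and Or45a) at an unadjusted p under 0.05. Orco was not called rhythmic in either genotype. The wild-type rhythm of Ir25a was not called in the main test (fitted amplitude 0.61 ± 0.14, peak at ZT 23.7 ± 0.86 h). It was called with upper-quartile scaling, a filter of 1 CPM in 12 libraries and both forms of replicate block. Leaving out wild-type ZT14 replicate 1, wild-type ZT18 replicate 2 or mutant ZT10 replicate 1 also gave the call. Most other settings did not.

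Of 15 partner genes tested, which act beside the receptors in sensory neurons, 3 were called higher in the mutant over all times, against the 14.1% of all genes. They were CG14741 (log2 fold change 0.38), TrpA1, a warmth and irritant channel (0.33), and wtrw, a TRP channel of hygrosensation (0.21). Snmp1, the membrane protein that pheromone-sensing neurons need, averaged 41.6 ± 11.02 CPM in mutant heads and 39.5 ± 7.17 CPM in wild-type heads (log2 fold change 0.06 ± 0.15, adjusted p = 0.78). Of 18 genes of the sensory cilium, the dynein gene btv (0.75) and the transcription factor gene Rfx (0.29) were higher and Arl6 (−0.53) was lower. Of 12 genes of the antennal support cells, among them the odorant binding protein genes lush and Obp83a, edgeR called none at an adjusted p under 0.05. Their median log2 fold change was −0.29, and the nearest to the threshold was Obp19d, at 1821 ± 265.5 CPM in mutant heads and 2463 ± 1171 CPM in wild-type heads (−0.38 ± 0.15, adjusted p = 0.069).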

How the data were processed

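RNA-seq values of 24 head libraries (12 groups of genotype and time, 2 libraries each) were taken as the authors deposited them. Per the labels' protocols, libraries were poly(A) selected, directional, and read as 75 nt single ends. STAR 2.6.1d, StringTie and DESeq2 and the build dm6 are named in the submitters' processing notes, with no options and no counting strand. The deposited gene table holds whole-number estimated counts: 99.997% of its values lie within 1 count of the sum over transcripts of coverage times length over 75, computed from the coverage in the authors' transcript tables. The deposited FPKM were summed over transcripts per gene. 5 names turned into dates were left out, which leaves 16722 genes.

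edgeR 4.0.16 (R 4.3.3) fitted all 24 libraries with 12 group means, filterByExpr and TMM scaling (11095 genes, common biological coefficient of variation 0.26). Contrasts were the mean over times, each time, and genotype by time, and a 24 h cosine and sine per genotype gave the rhythm tests. Amplitudes and peaks with their SE came from a separate least-squares fit to log2 CPM within each genotype. p-values were adjusted by the Benjamini-Hochberg method with a threshold of 0.05. Scripts were tested on simulated data. Precision is limited by 2 libraries per group and by low counts of the receptors, whose sum was 2516 to 4690 per mutant library and 1653 to 4252 per wild-type library. Alternatives used limma 3.58.1 (voom, and trend on log2 of FPKM plus 0.5 or 0.1), DESeq2 1.42.0, other scalings and filters, length offsets, replicate blocks, and libraries left out. The fits with only 1 mutant replicate number were chosen after seeing the data. Text names the 4 co-receptors, the 5 members of each family with the highest mean FPKM, and every member called in a test. Members and lists were chosen with earlier results of these data known. Coordinates are those of the transcript tables in dm6, and overlaps were computed from the Ensembl gene annotation of the same assembly (BDGP6). Python 3.11.15, pandas 2.3.3 and matplotlib 3.10.9 made tables and figures.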

Additional observations from a re-analysis of the deposited data

How the results depend on the processing

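Over all times, 11 receptor genes were called higher and 3 lower. The higher count was 4 with a filter of 1 CPM in 12 libraries, 4 over ZT6 to ZT18, and 3 and 0 with only the mutant replicate 1 or replicate 2 libraries, and the lower count was 5 and 1 in those 2 fits. Leaving out 1 library gave 8 to 20 higher (20 without wild-type ZT2 replicate 1) and 3 to 4 lower. At ZT2 the count of 5 became 1 with limma-voom, 0 without both libraries lowest in long transcripts, and 0 to 16 with 1 library left out: 16 without wild-type ZT2 replicate 1, and 0 without wild-type ZT2 replicate 2 or either mutant ZT2 library. With a replicate block per genotype the counts were 2 at ZT6, 1 at ZT10, 1 at ZT18 and 5 for the wild-type rhythm. Without both libraries lowest in long transcripts they were 1 at ZT10 and 2 for the mutant rhythm, and the wild-type rhythm was called for 1 with only the mutant replicate 1 libraries. With 1 library left out, counts were 0 to 1 at each of ZT6, ZT10, ZT18 and ZT22, 0 at ZT14, 0 to 3 for genotype by time (3 without wild-type ZT2 replicate 1), 1 to 2 for the mutant rhythm, 2 to 4 for the wild-type rhythm and 0 for the rhythm difference. At ZT6 the call of Ir75a was lost without any 1 of the 4 ZT6 or 4 ZT14 libraries. The causes were not tested. Except for the fits with only 1 mutant replicate number, shares of all genes called are not given for these alternatives. These counts therefore do not set the receptor genes apart from other genes.

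Over ZT6 to ZT18, calls ended for Gr39a (0.62), Ir62a (0.64), Gr94a (0.10), Ir75d (3.90), Ir85a (1.93), Or19b (1.74), Or85b (1.28) and Or45a (−0.44, log2). Or45a was −0.95 and not called with limma-voom, and Ir60a was 0.21 and not called on log2 of FPKM plus 0.5, a scale that understates changes of low genes. Ir8a, not called in the main test, passed with a replicate block per genotype (0.73, adjusted p = 0.049) and without mutant ZT10 replicate 1 (0.92, adjusted p = 0.035), and Ir68a with upper-quartile scaling (−0.27, adjusted p = 0.0497).

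The sign turned only for genes that were not called. With only the mutant replicate 1 libraries the log2 fold change was −0.209 for Orco, −0.151 for Ir8a, −0.155 for Ir25a, −0.047 for Or43b, 0.127 for Ir75b, −0.119 for Or63a, −0.17 for Or59b, −0.069 for Gr10a and 0.02 for Gr64b. With upper-quartile scaling it was −0.025 for Or43b and −0.027 for Or63a. Over ZT6 to ZT18 it was −0.015 for Or43b and 0.038 for Gr64f. With limma-voom it was 0.036 for Gr64b and 0.049 for Gr64f, and without both libraries lowest in long transcripts 0.516 and 0.031. Gr64f was 0.075 with length offsets and 0.302 with only the mutant replicate 2 libraries. With 1 library left out, values ran from −0.278 to 0.242 for Ir75b, −0.036 to 0.115 for Or63a, −0.293 to 0.331 for Gr64b and −0.269 to 0.899 for Gr64f.

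Libraries of the same replicate number deviated together within the mutant (14 of 15 pairs of times correlated over 0.1) but in 3 of 15 pairs in wild type and 2 of 6 between genotypes, so the numbers do not pair mutant with wild-type samples. A replicate block gave 11 higher and 3 lower, and a block per genotype 14 higher and 3 lower, with no share of all genes given for either. Depth limits most receptors: 61 of 77 were under 10 counts in at least 1 library.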
